A study of Mus musculus with 36 samples.

Results

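The 10 voltage-gated calcium channel subunit genes described here are Cacna1c and Cacna1d, which encode L-type α1 subunits, Cacna1a (P/Q-type), Cacna1b (N-type), Cacna1e (R-type), Cacna1g and Cacna1h (T-type), the α2δ genes Cacna2d2 and Cacna2d3, and the β gene Cacnb2. They were chosen by symbol from the 52636 genes of a table of HTSeq read counts, and 6 of them (Cacna1a, Cacna1c, Cacna1d, Cacna1g, Cacna1h and Cacnb2) passed a filter on low counts and were tested. RNA-seq was performed on cells sorted by FACS from diaphragm, pectoralis, forelimb and hindlimb muscles of mice carrying S100β-GFP and NG2-dsRed transgenes. The S100b promoter drives GFP and the Cspg4 (NG2) promoter drives dsRed. All libraries come from this 1 genotype, with no treatment, and the groups differ only in the fluorescence of the sorted cells. Perisynaptic Schwann cells (PSCs), the glia of the neuromuscular junction, were taken as S100β-GFP+;NG2-dsRed+ cells (9 libraries) and were set beside S100β-GFP+ cells (8 libraries) and NG2-dsRed+ cells (10 libraries). The labels start the age range at postnatal day 15 and end it anywhere from day 21 to day 46 with the library number. The methods give the collection as postnatal day 15 to 21 for all mice. Per the methods each replicate was the cells of a single mouse.

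Voltage-gated calcium channels open when the membrane depolarizes and let calcium into the cell. Their pore is formed by an α1 subunit, which sets the channel type. In L-, P/Q-, N- and R-type channels the pore is accompanied by an α2δ subunit outside the membrane and a cytoplasmic β subunit. These bring channels to the surface and tune their gating. L-type channels trigger contraction in muscle, P/Q-, N- and R-type channels drive transmitter release at nerve terminals, and T-type channels open at weak depolarization. In glia at the neuromuscular junction, calcium signals accompany synaptic activity.

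The libraries held between 5221655 and 9592875 counts. Cspg4 averaged 689 ± 132 CPM (counts scaled to a library of 1000000 counts, mean ± SD, n = 9) in PSCs and 665 ± 138 (n = 10) in NG2-dsRed+ cells against 71.0 ± 42.3 (n = 8) in S100β-GFP+ cells. S100b averaged 255 ± 198 CPM in PSCs and 29.4 ± 10.1 in S100β-GFP+ cells, and 6.54 ± 4.90 in the NG2-dsRed+ group. Summed over 8 Schwann cell lineage markers, PSC libraries reached 2779 to 3569 CPM, S100β-GFP+ libraries 657 to 2016 CPM and NG2-dsRed+ libraries 85.0 to 453 CPM. Over 6 markers of myelinating Schwann cells the sums were 1889 to 2309 CPM in PSC, 915 to 2094 in S100β-GFP+ and 242 to 672 in NG2-dsRed+ libraries. In S100β-GFP+ libraries 5 fibroblast markers summed to between 9625 and 21005 CPM and 5 macrophage and leukocyte markers to between 191 and 1306 CPM, so those libraries hold RNA of more than Schwann cells. NG2-dsRed+ libraries had 7290 to 15812 CPM over 10 pericyte and smooth muscle markers, against 796 to 1494 in PSCs. Cspg4, whose promoter drives the dsRed used for sorting, is among these 10 and alone had 503 to 965 CPM in PSC libraries. In NG2-dsRed+ libraries the 5 fibroblast markers summed to between 1244 and 11971 CPM and 5 endothelial markers to between 1165 and 2618 CPM. In PSC libraries the fibroblast markers summed to between 417 and 1738 CPM and the endothelial markers to between 96.9 and 467 CPM. The macrophage and leukocyte markers summed to between 2.07 and 11.0 CPM in PSC libraries. Of the 7 neuronal markers 1 passed the filter, and their sum stayed between 2.50 and 47.7 CPM in all libraries. Some libraries stood apart. PSC library 18 had a median correlation of 0.79 with the other 8 PSC libraries across genes, where those had 0.88 to 0.92, and S100β-GFP+ libraries 14, 17 and 22 had 687 to 1980 CPM of 5 endothelial markers against 118 to 176 CPM in the other 5. Values without them stand beside the results below whose call or size they change.

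Of the members, Cacna1c is the most abundant in NG2-dsRed+ cells in CPM, and its promoters are shown because its counts pool transcripts from several start sites. RefSeq (GRCm38.p6) held windows for 7 of the 10 members, 11 windows in all, of which 3 belong to Cacna1c on the minus strand of chromosome 6. Each window is the 250 bases before its start, and any base in an annotated exon is left out of the print, which shortens the first and second at the end nearest the start. The printed bases are at chr6:119196419-119196659, chr6:119108574-119108745 and chr6:118757975-118758224. Capitals mark the GC box (GGGCGG, searched on both strands).
Cacna1c first start: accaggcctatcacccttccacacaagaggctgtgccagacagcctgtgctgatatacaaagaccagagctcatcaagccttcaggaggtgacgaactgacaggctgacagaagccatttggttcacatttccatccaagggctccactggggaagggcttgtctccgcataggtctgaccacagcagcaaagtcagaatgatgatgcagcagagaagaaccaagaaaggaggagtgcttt
Cacna1c second start: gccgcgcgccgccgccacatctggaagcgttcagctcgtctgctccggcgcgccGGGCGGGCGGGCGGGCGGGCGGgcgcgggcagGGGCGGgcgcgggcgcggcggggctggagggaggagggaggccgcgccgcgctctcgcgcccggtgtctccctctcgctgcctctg
Cacna1c last start: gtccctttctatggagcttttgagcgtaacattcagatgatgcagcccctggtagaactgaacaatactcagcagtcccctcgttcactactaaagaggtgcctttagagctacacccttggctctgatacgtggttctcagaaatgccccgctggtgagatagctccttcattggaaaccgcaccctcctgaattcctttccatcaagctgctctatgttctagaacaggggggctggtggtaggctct
The second start, 87923 bases into the gene, has 6 GC boxes, of which 5 form a run in which neighbours share bases, and 48 CpG in its 250 bases, 82.8% of which are G or C. The other Cacna1c windows have no GC box, 2 and 5 CpG, and 51.6% and 50.4% G or C. None of the 3 Cacna1c windows has a TATA box (TATAAA, searched likewise). Over all 32851 windows of this length 32.7% hold a GC box and 12.4% a TATA box, the median GC content is 52.4% and the median CpG count is 6. The counts are per gene and do not show which start is used.

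All 6 tested members were at their lowest mean in PSCs, 4 were highest in NG2-dsRed+ cells (Cacna1c, Cacna1g, Cacna1h and Cacnb2), and Cacna1a and Cacna1d were highest in S100β-GFP+ cells. For Cacna1h the lowest mean in PSCs rested on S100β-GFP+ libraries 14, 17 and 22. The other 5 S100β-GFP+ libraries averaged 0.490 ± 0.443 CPM of it against 1.84 ± 1.18 in PSCs. Against S100β-GFP+ cells 5 of the 6 were lower in PSCs and none was higher (edgeR quasi-likelihood test, Benjamini-Hochberg adjusted p under 0.05), where 24.1% of all 15330 genes tested were lower in PSCs and 22.9% higher. Against NG2-dsRed+ cells 5 of the 6 were lower in PSCs and none was higher, with 23.1% of all genes lower and 20.9% higher. Between the other cell types Cacna1a was higher in S100β-GFP+ cells and 4 members were lower, with 18.1% of all genes higher and 15.2% lower. The median log2 difference of the 6 was -1.79, -4.20 and -2.23 in the 3 comparisons, against 0.04, 0.02 and -0.02 over all genes tested. The comparisons share libraries, so they are not independent of each other. In bulk samples, fewer cells of a type and less RNA per cell cannot be told apart. Without PSC library 18 the counts of members called were 5, 4 and 6, and without S100β-GFP+ libraries 14, 17 and 22 they were 5 (4 lower and 1 higher), 4 and 5. In the latter fit, of all 16216 genes tested 3257 were lower and 3621 higher, 3577 and 3549, and 2736 and 2786.

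**Figure D1:**
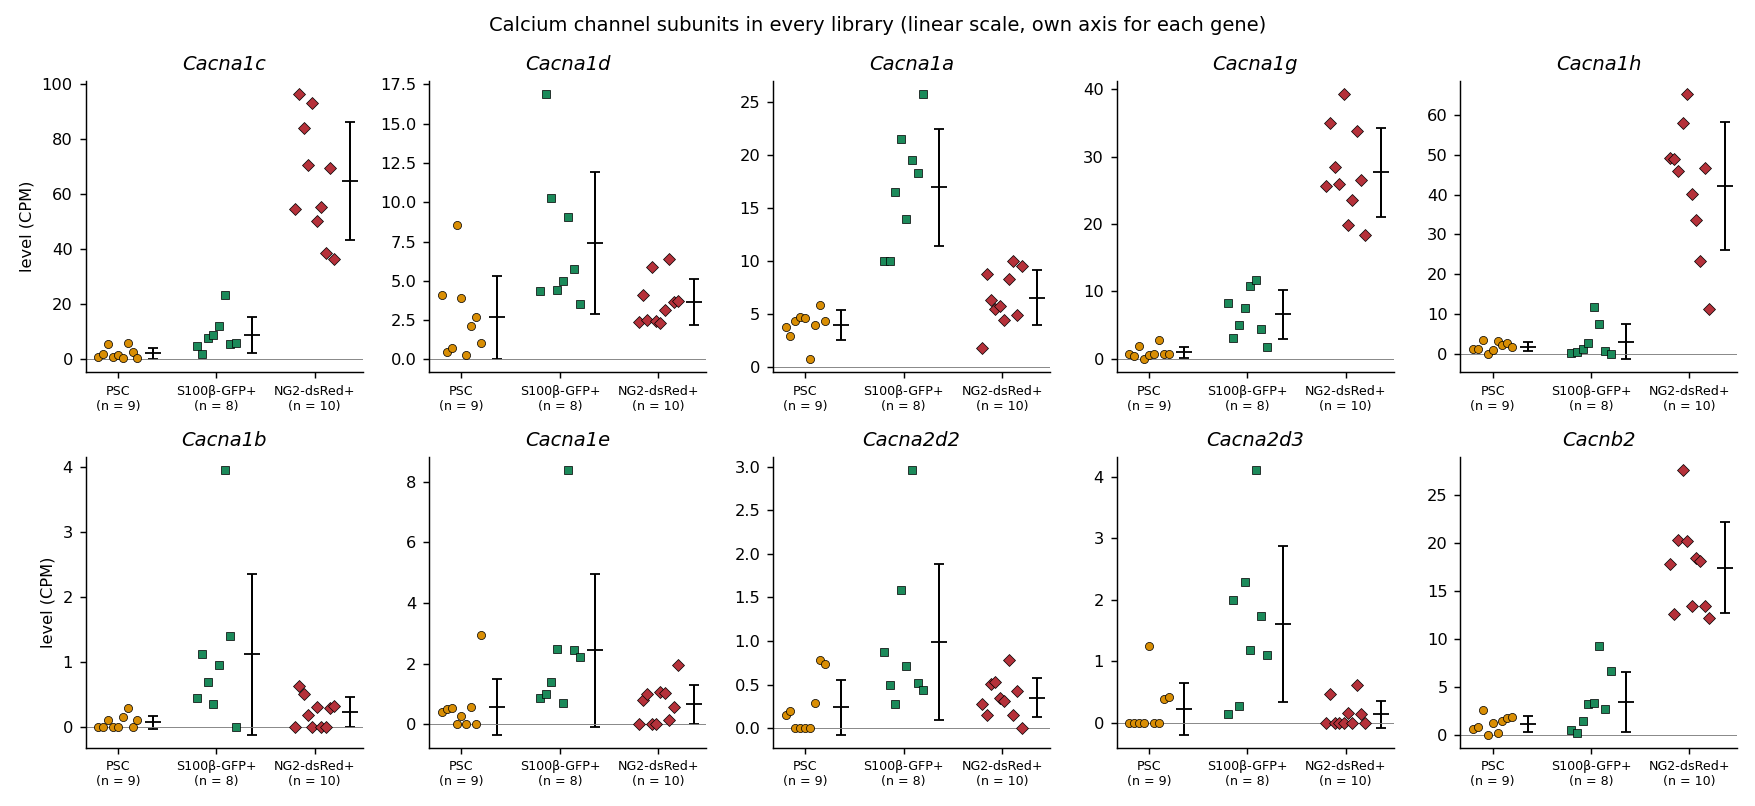
Level of each of the 10 members in every library, in CPM on a linear axis of its own (circles, PSCs; squares, S100β-GFP+ cells; diamonds, NG2-dsRed+ cells), with the mean ± SD beside the points. Cacna1c, Cacna1g and Cacnb2 are higher in all 10 NG2-dsRed+ libraries than in any other library, and Cacna1a is higher in all 8 S100β-GFP+ libraries than in any PSC library.

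Among the L-type pores, Cacna1c (ENSMUSG00000051331, chr6:118587240-119196418, minus strand of GRCm38, as for all genes here) encodes the CaV1.2 subunit of vascular smooth muscle and heart. It ranged from 0.31 to 5.58 CPM in PSC libraries (median 1.24), from 1.87 to 23.4 in S100β-GFP+ libraries (median 6.76) and from 36.2 to 96.2 in NG2-dsRed+ libraries (median 62.3). NG2-dsRed+ libraries thus lay above all others, while PSC and S100β-GFP+ libraries overlapped, with 6 of 9 PSC libraries below every S100β-GFP+ library. Cacna1c was 31.2-fold lower in PSCs than in NG2-dsRed+ cells (log2 fold change -4.96 ± 0.49 SE, edgeR adjusted p = 1.36e-09) and 4.21-fold lower than in S100β-GFP+ cells (-2.07 ± 0.47, edgeR adjusted p = 0.000522). It was 7.42-fold lower in S100β-GFP+ than in NG2-dsRed+ cells (-2.89 ± 0.45, edgeR adjusted p = 8.28e-06). S100β-GFP+ library 22 had the 23.4 CPM and libraries 14 and 17 had 8.82 and 12.1, above the 5 others, at 1.87 to 7.75. Without libraries 14, 17 and 22 the difference from PSCs was -1.24 (edgeR adjusted p = 0.0378) and that between S100β-GFP+ and NG2-dsRed+ cells -3.67 (edgeR adjusted p = 2.61e-06). Library 22 also had 1097 CPM of the endothelial markers and 1395 CPM of the pericyte and smooth muscle markers, where the 5 others had 118 to 176 and 243 to 893, and their part in Cacna1c was not tested.

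Cacna1d (ENSMUSG00000015968, chr14:30039939-30491455, minus strand) encodes CaV1.3, an L-type pore of hair cells, pacemaker cells and endocrine cells. Its PSC libraries lay between 0.31 and 8.59 CPM (median 2.15), its S100β-GFP+ libraries between 3.55 and 16.9 (median 5.36) and its NG2-dsRed+ libraries between 2.32 and 6.39 (median 3.40). All 3 cell types overlapped. Cacna1d was 2.79-fold lower in PSCs than in S100β-GFP+ cells (log2 fold change -1.48 ± 0.47, edgeR adjusted p = 0.00976). Its differences between PSCs and NG2-dsRed+ cells (-0.46 ± 0.44, edgeR adjusted p = 0.426) and between S100β-GFP+ and NG2-dsRed+ cells (1.02 ± 0.45, edgeR adjusted p = 0.0804) did not pass. PSC library 18 had the highest PSC value, and also 1640 CPM of 8 muscle fibre markers against 197 to 984 in the other 8 and 1494 CPM of the pericyte and smooth muscle markers against 796 to 1277. Their part in Cacna1d was not tested. Without that library the first difference was -1.86 (edgeR adjusted p = 0.000797) and the last passed at 1.06 (edgeR adjusted p = 0.0372). The last also passed without NG2-dsRed+ library 28 (edgeR adjusted p = 0.0480). It passed as well in 2 of 10 other ways of processing, by limma-voom and by edgeR with only the groups compared (adjusted p between 0.00949 and 0.0104). In total counts without TMM normalization the PSC difference from S100β-GFP+ cells did not pass (-1.01, edgeR adjusted p = 0.0672). Chdh, a gene on the opposite strand, shares 589 exon bases with Cacna1d and had 180 counts in all libraries together.

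Of the pores of nerve terminals, Cacna1a (ENSMUSG00000034656, chr8:84388440-84640246, plus strand), which encodes CaV2.1, was the member with the highest mean level per kilobase of exon in both PSCs and S100β-GFP+ cells. It ranged from 0.78 to 5.84 CPM in PSC libraries (median 4.32), from 10.0 to 25.7 in S100β-GFP+ libraries (median 17.4) and from 1.84 to 10.0 in NG2-dsRed+ libraries (median 6.06). Every S100β-GFP+ library was above every PSC library, and 6 of 8 were above every NG2-dsRed+ library. Cacna1a was 4.29-fold lower in PSCs than in S100β-GFP+ cells (log2 fold change -2.10 ± 0.30, edgeR adjusted p = 1.21e-06), and 2.58-fold higher in S100β-GFP+ than in NG2-dsRed+ cells (1.36 ± 0.29, edgeR adjusted p = 0.000391). Its difference of -0.74 ± 0.29 between PSCs and NG2-dsRed+ cells passed narrowly (1.67-fold, edgeR adjusted p = 0.0375). That call was lost in 7 of 10 other ways of processing (adjusted p between 0.0521 and 0.218), and on leaving out PSC library 4, 6, 12, 18, 20, 23 or 36, NG2-dsRed+ library 7, 26, 28 or 35, or S100β-GFP+ library 11 (edgeR adjusted p between 0.0581 and 0.114). An antisense gene, Gm16183, shares 435 exon bases with Cacna1a and had 6 counts in all libraries.

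Cacna1b (CaV2.2, ENSMUSG00000004113, chr2:24603887-24763152, minus strand) and Cacna1e (CaV2.3, ENSMUSG00000004110, chr1:154390731-154884501, minus strand), the N- and R-type pores, did not pass the filter, with 5, 55 and 15 counts of Cacna1b in PSC, S100β-GFP+ and NG2-dsRed+ libraries and 50, 116 and 45 of Cacna1e. Cacna1b had a count in 4 of 9 PSC, 7 of 8 S100β-GFP+ and 6 of 10 NG2-dsRed+ libraries, with medians of 0, 0.82 and 0.23 CPM and highest values of 0.29, 3.95 and 0.63. Cacna1e was found in 6, 8 and 7 libraries of the 3 cell types, with medians of 0.39, 1.80 and 0.68 CPM and highest values of 2.95, 8.39 and 1.94. Both genes were thus near the limit of detection, with their highest value in S100β-GFP+ library 22. A count of 0 in 1 library allows a level of up to between 0.237 and 0.709 CPM (3 counts), which covers counting error only.

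The T-type pores were both far higher in NG2-dsRed+ cells than in either other cell type. Cacna1g (ENSMUSG00000020866, chr11:94408391-94474198, minus strand), which encodes CaV3.1, lay between 0 and 2.72 CPM in PSC libraries (median 0.74), between 1.78 and 11.7 in S100β-GFP+ libraries (median 6.29) and between 18.4 and 39.3 in NG2-dsRed+ libraries (median 26.3). NG2-dsRed+ libraries were above all others, and 7 of 9 PSC libraries were below every S100β-GFP+ library. Cacna1g was 28.6-fold lower in PSCs than in NG2-dsRed+ cells (log2 fold change -4.84 ± 0.41, edgeR adjusted p = 6.46e-11), 6.80-fold lower than in S100β-GFP+ cells (-2.77 ± 0.40, edgeR adjusted p = 1.20e-06), and 4.201-fold lower in S100β-GFP+ than in NG2-dsRed+ cells (-2.07 ± 0.36, edgeR adjusted p = 4.09e-05). Without S100β-GFP+ libraries 14, 17 and 22, which averaged 10.1 CPM of Cacna1g against 4.502 in the other 5, the last 2 differences were -2.18 (edgeR adjusted p = 0.000121) and -2.62 (edgeR adjusted p = 2.10e-05).

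Cacna1h (ENSMUSG00000024112, chr17:25374285-25433783, minus strand), which encodes CaV3.2, ranged from 0 to 3.44 CPM in PSC libraries (median 1.79), from 0 to 11.8 in S100β-GFP+ libraries (median 0.90) and from 11.2 to 65.2 in NG2-dsRed+ libraries (median 46.3). NG2-dsRed+ libraries were above all PSC libraries, but S100β-GFP+ library 17 reached into their range. Cacna1h was 22.7-fold lower in PSCs than in NG2-dsRed+ cells (log2 fold change -4.51 ± 0.61, edgeR adjusted p = 5.51e-07) and 14.1-fold lower in S100β-GFP+ than in NG2-dsRed+ cells (-3.82 ± 0.63, edgeR adjusted p = 1.56e-05). Between PSCs and S100β-GFP+ cells it did not pass (-0.69 ± 0.62, edgeR adjusted p = 0.379). S100β-GFP+ libraries 14, 17 and 22 had 2.82, 11.8 and 7.57 CPM of Cacna1h, and the other 5 had 0 to 1.11. Without those 3 libraries the direction turned and Cacna1h was higher in PSCs (1.86, edgeR adjusted p = 0.0160), while its difference between S100β-GFP+ and NG2-dsRed+ cells grew from -3.82 to -6.32 (edgeR adjusted p = 7.94e-09). The same 3 libraries had 687, 1980 and 1097 CPM of the endothelial markers, 990 to 1652 CPM of the pericyte and smooth muscle markers against 243 to 893 in the other 5, and 191 to 392 CPM of the macrophage and leukocyte markers against 775 to 1306. The part of those cells in the Cacna1h difference was not tested. The tryptase gene Tpsg1, on the opposite strand, shares 158 exon bases with Cacna1h and had 5 counts in all.

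**Figure D2:**
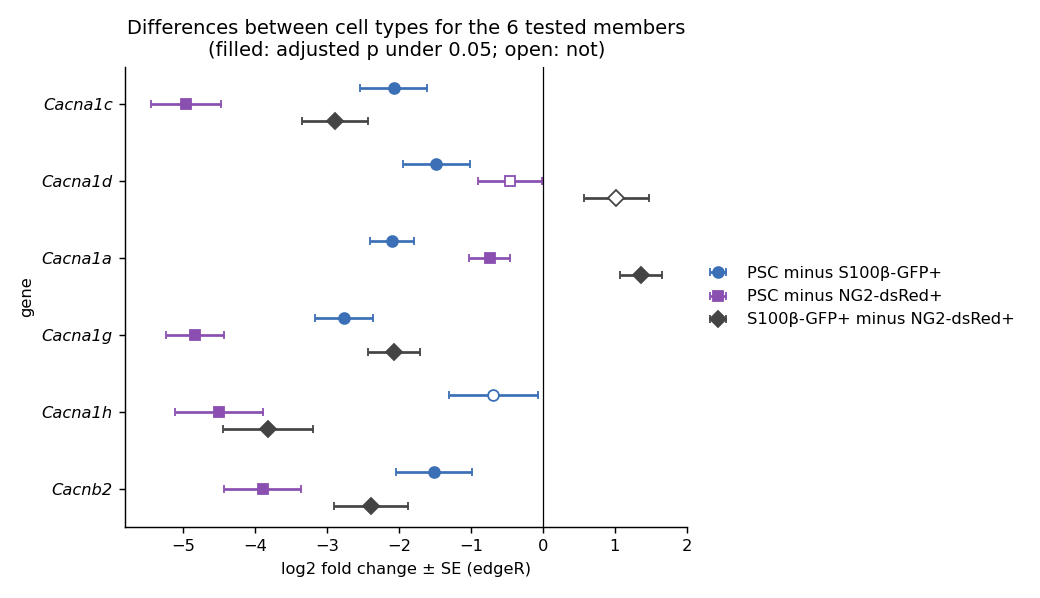
Log2 fold change ± SE (horizontal axis) of the 6 tested members (rows) in each of the 3 comparisons, from the edgeR fit of all libraries, with filled symbols for an adjusted p under 0.05. All 6 differences between PSCs and NG2-dsRed+ cells are below 0, down to -4.96 for Cacna1c, and Cacna1a at 1.36 and Cacna1d at 1.02 are the members above 0 between S100β-GFP+ and NG2-dsRed+ cells.

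Cacnb2 (ENSMUSG00000057914, chr2:14603088-14987908, plus strand), a β subunit that pairs with L-type pores in heart and smooth muscle, ranged from 0 to 2.50 CPM in PSC libraries (median 1.24), from 0.12 to 9.22 in S100β-GFP+ libraries (median 2.89) and from 12.1 to 27.6 in NG2-dsRed+ libraries (median 17.9). NG2-dsRed+ libraries were above all others, and just 1 PSC library was below every S100β-GFP+ library. Cacnb2 was 14.9-fold lower in PSCs than in NG2-dsRed+ cells (log2 fold change -3.90 ± 0.53, edgeR adjusted p = 5.42e-07) and 5.22-fold lower in S100β-GFP+ than in NG2-dsRed+ cells (-2.39 ± 0.51, edgeR adjusted p = 0.000494). Its difference between PSCs and S100β-GFP+ cells (-1.51 ± 0.53, edgeR adjusted p = 0.0199) was lost in 5 of 10 other ways of processing, by limma-voom at -0.68 (adjusted p = 0.402) and without libraries 14, 17 and 22 at -0.79 (edgeR adjusted p = 0.294) among them. It was also lost without S100β-GFP+ library 22 (-1.08, edgeR adjusted p = 0.0942) or 33 (-1.30, edgeR adjusted p = 0.0517). Between S100β-GFP+ and NG2-dsRed+ cells the difference without libraries 14, 17 and 22 was -3.06 (edgeR adjusted p = 0.000313). Gm10849, Gm13269 and Gm10848, on the opposite strand, share 618, 239 and 111 exon bases with Cacnb2 and had 0, 30 and 53 counts.

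Cacna2d2 (ENSMUSG00000010066, chr9:107399612-107529343, plus strand) and Cacna2d3 (ENSMUSG00000021991, chr14:28904943-29721864, minus strand), the α2δ members, did not pass the filter, with 19, 47 and 24 counts of Cacna2d2 in PSC, S100β-GFP+ and NG2-dsRed+ libraries and 20, 77 and 9 of Cacna2d3. Cacna2d2 had a count in 5 of 9 PSC, 8 of 8 S100β-GFP+ and 9 of 10 NG2-dsRed+ libraries, with means of 0.240 ± 0.312, 0.984 ± 0.895 and 0.350 ± 0.224 CPM. Cacna2d3 had a count in 3 of 9, 8 of 8 and 4 of 10 libraries, with means of 0.228 ± 0.419, 1.61 ± 1.27 and 0.138 ± 0.223 CPM. Both were found in every S100β-GFP+ library, with their highest values, 2.96 and 4.11 CPM, in library 22. When edgeR was run with no filter on low counts, Cacna1b, Cacna1e and Cacna2d3 were lower in PSCs than in S100β-GFP+ cells (log2 fold changes -3.66, -1.93 and -2.60, edgeR adjusted p = 0.00288, 0.0441 and 0.0243), while Cacna2d2 did not pass (-1.89, edgeR adjusted p = 0.0551), so that 8 of 10 members were lower where 28.3% of all 44705 genes fitted were. In that fit all genes leaned the same way between PSCs and S100β-GFP+ cells, with a median log2 difference of -0.97, 12649 genes lower and 3907 higher. Cacna2d3 was then also higher in S100β-GFP+ than in NG2-dsRed+ cells (3.33, edgeR adjusted p = 0.00958), where 18.3% of all genes were and their median was 0.78.

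Groups whose libraries do not overlap were counted for the 6 tested members beside all genes. Between PSCs and S100β-GFP+ cells this held for 1 of 6 (Cacna1a), against 15.5% of all genes tested. It held for 4 of 6 (Cacna1c, Cacna1g, Cacna1h and Cacnb2) between PSCs and NG2-dsRed+ cells, against 13.9%, and for 3 of 6 (Cacna1c, Cacna1g and Cacnb2) between S100β-GFP+ and NG2-dsRed+ cells, against 11.6%.

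To compare members with each other, CPM were divided by kilobases of merged exons. In NG2-dsRed+ cells the order of the mean level per kilobase was Cacna1h (4.32 ± 1.64 CPM per kilobase), Cacna1c (3.06 ± 1.01), Cacna1g (2.73 ± 0.65), Cacnb2 (1.31 ± 0.36), Cacna1a (0.575 ± 0.226) and Cacna1d (0.290 ± 0.115), and the other 4 were at or under 0.0440. By the overlap of mean ± SD, neighbours among the first 3 did not differ beyond their spread, nor did Cacna1a and Cacna1d, while Cacna1g and Cacnb2, Cacnb2 and Cacna1a, and Cacna1d and Cacna2d2 stood apart. Within libraries Cacna1h was above Cacna1c in 9 of 10 libraries, Cacna1c above Cacna1g in 8 and Cacna1a above Cacna1d in 9. In S100β-GFP+ cells Cacna1a led (1.48 ± 0.48 CPM per kilobase), followed by Cacna1g (0.649 ± 0.356), Cacna1d (0.586 ± 0.357), Cacna1c (0.413 ± 0.313), Cacna1h (0.316 ± 0.443) and Cacnb2 (0.254 ± 0.237). In PSCs Cacna1a was again first (0.344 ± 0.124 CPM per kilobase), followed by Cacna1d (0.212 ± 0.209), Cacna1h (0.189 ± 0.120), Cacna1c (0.0974 ± 0.0968), Cacna1g (0.0940 ± 0.0817) and Cacnb2 (0.0854 ± 0.0621). In S100β-GFP+ cells and in PSCs no pair of neighbours stood apart by mean ± SD, although within libraries Cacna1a was above the next gene in 8 of 8 S100β-GFP+ and in 8 of 9 PSC libraries. On the length of the longest protein-coding transcript, the first gene of each cell type stayed first by mean. Cacna1h (5.13 ± 1.95 CPM per kilobase) was then above Cacna1c (4.92 ± 1.62) in just 5 of 10 NG2-dsRed+ libraries. Cacna1a stayed above the next gene in 8 of 8 S100β-GFP+ and 8 of 9 PSC libraries. Cacnb2, whose transcript is short beside its merged exons, moved to rank 3 in PSCs and NG2-dsRed+ cells and to rank 2 in S100β-GFP+ cells.

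Summed over the 7 pore-forming members, the level per kilobase was 0.967 ± 0.292 CPM per kilobase in PSCs, 3.66 ± 1.23 in S100β-GFP+ cells (2.93 ± 0.37 without libraries 14, 17 and 22) and 11.0 ± 2.9 in the NG2-dsRed+ group. The cell types also differed in which pores made up that sum. T-type pores held 63.4% ± 5.9 of it in NG2-dsRed+ cells (50.1% to 72.1%), 24.5% ± 14.2 in S100β-GFP+ cells (17.6% ± 10.9 without libraries 14, 17 and 22) and 31.2% ± 21.2 in PSCs. P/Q-, N- and R-type pores held 6.35% ± 4.15 in NG2-dsRed+ cells (at most 16.0%), 47.7% ± 15.0 in S100β-GFP+ cells (at least 29.3%) and 38.9% ± 12.4 in PSCs (15.7% to 58.8%). On transcript length the T-type means were 56.9% ± 6.0 in NG2-dsRed+ cells (43.9% to 66.0%), 21.4% in S100β-GFP+ cells and 27.6% in PSCs. Those of the P/Q-, N- and R-type pores were 6.82%, 48.6% and 40.4%. The L-type share averaged 30.3% ± 3.0 in NG2-dsRed+ cells (26.1% to 34.3%), 27.7% ± 10.8 in S100β-GFP+ cells (18.0% to 50.7%) and 29.9% ± 16.9 in PSCs (7.36% to 63.3%), and on transcript length the means were 36.2%, 30.0% and 32.0%. PSC shares varied widely and rest on 36 to 157 counts per library, and T-type pores ran from 0% in library 18 to 77.0% in library 23. These shares are a description of the members and carry no test.

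**Figure D3:**
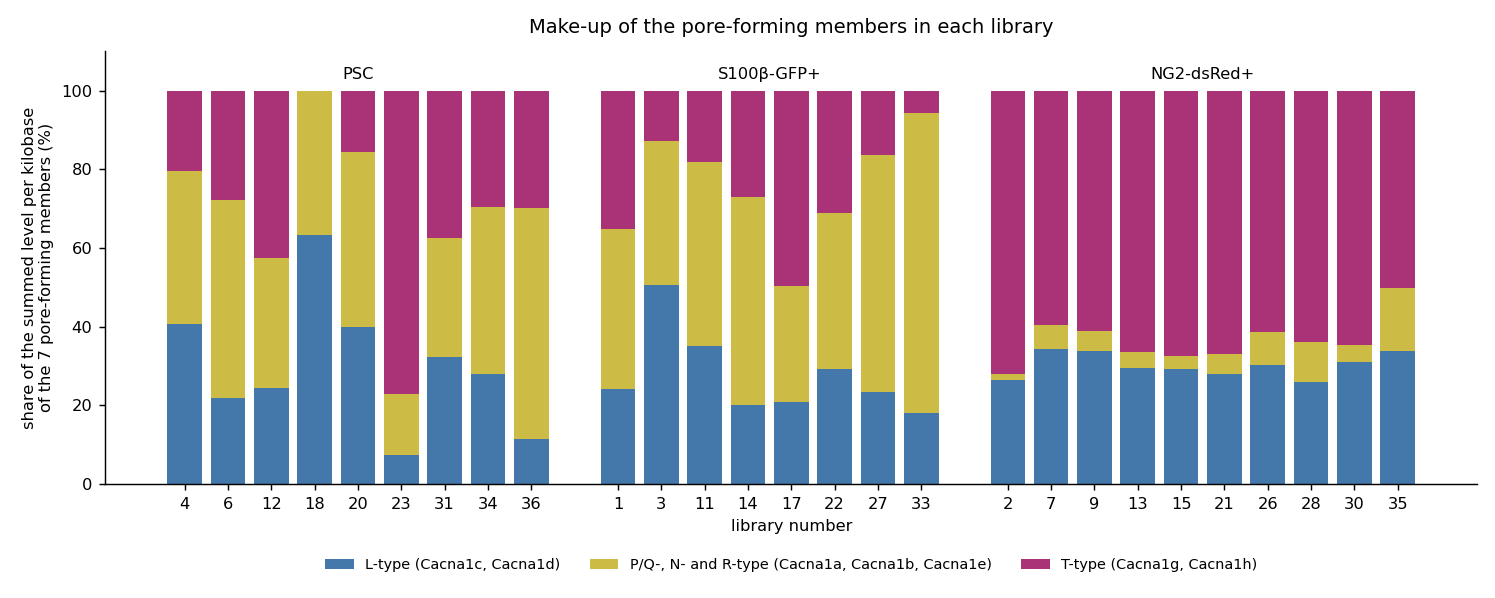
Share of the summed level per kilobase of the 7 pore-forming members (vertical axis, percent) that L-type, P/Q-, N- and R-type, and T-type pores hold in each library (bars, labelled by library number). Per kilobase of merged exons, as drawn, T-type pores hold at least 50.1% in every NG2-dsRed+ library, and P/Q-, N- and R-type pores at most 16.0%. PSC libraries range from 0% to 77.0% T-type. On transcript length the lowest T-type share of an NG2-dsRed+ library is 43.9%.

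Members also varied within a cell type alongside marker genes. Across the 10 NG2-dsRed+ libraries, log2 levels of Cacna1c and Cacna1h followed the summed pericyte and smooth muscle markers (Pearson r = 0.92 for both, Spearman rho 0.88 and 0.89), Cacna1g and Cacnb2 less so (r = 0.53 for both), and Cacna1a and Cacna1d not (r = -0.36 and -0.25). Cacna1a instead followed the summed fibroblast markers (r = 0.86, rho 0.84). Libraries 28 and 35 had the lowest Cacna1c (38.6 and 36.2 CPM), the lowest Cacna1h (23.3 and 11.2 CPM) and the lowest pericyte and smooth muscle sums. They also had the highest fibroblast sums of the 10 (11971 and 8778 CPM). Across the 10 libraries Cacna1c and Cacna1h also rose with the endothelial sum (r = 0.70 and 0.75, rho 0.48 and 0.65). Both fell with the fibroblast sum (r = -0.50 and -0.72, rho -0.39 and -0.83). Across the 8 S100β-GFP+ libraries, Cacna1h followed the endothelial sum (r = 0.96, rho 0.93) and Cacna1c the pericyte and smooth muscle sum (r = 0.92, rho 0.93). These are descriptions over libraries that share their depth and normalization, and the first S100β-GFP+ relation rests on libraries 14, 17 and 22. The part of other cell types in these levels was not tested.

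**Figure D4:**
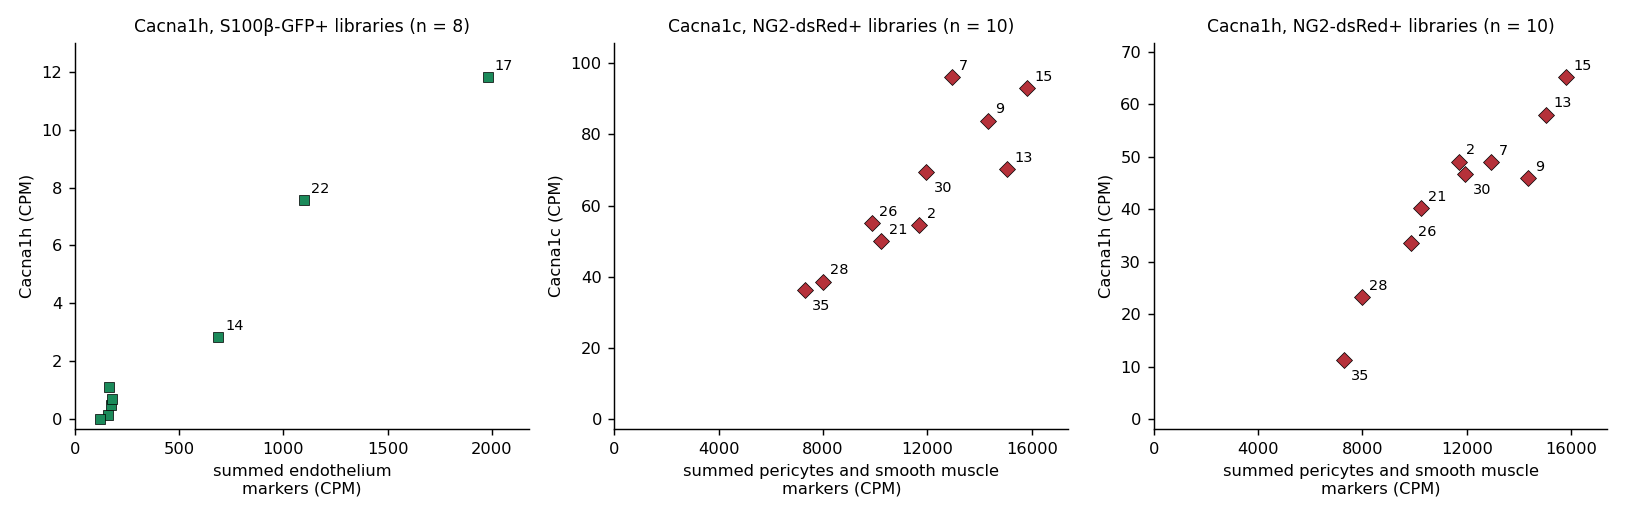
Level of Cacna1h in the 8 S100β-GFP+ libraries against the sum of 5 endothelial markers (left), and of Cacna1c (middle) and Cacna1h (right) in the 10 NG2-dsRed+ libraries against the sum of 10 pericyte and smooth muscle markers, all in CPM on linear axes with library numbers beside points. In the left panel libraries 14, 17 and 22 stand above the other 5, and in the others libraries 28 and 35 are lowest on both axes.

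The genes most like the leading members across all 27 libraries were named by the Pearson correlation of log2 CPM, other members left out. Nearest to Cacna1a were Prlr, the prolactin receptor (r = 0.89, mean 0.616, 28.0 and 4.34 CPM in PSC, S100β-GFP+ and NG2-dsRed+ libraries), Htra3, a secreted serine protease (r = 0.88), and Slc38a4, an amino acid transporter (r = 0.87). Nearest to Cacna1c were Rbpms, an RNA-binding protein of smooth muscle (r = 0.97), Nxph4, a neurexophilin (r = 0.96), and Notch3, the Notch receptor of vascular mural cells (r = 0.96, mean 18.3, 52.3 and 571 CPM) that is also among the pericyte and smooth muscle markers. Of the members themselves Cacna1g (r = 0.94), Cacnb2 (r = 0.91) and Cacna1h (r = 0.84) were close to Cacna1c, and Cacna1d was closest to Cacna1a (r = 0.67), while Cacna1a and Cacna1c were weakly related (r = 0.24). These points share the 3 cell types, so they mostly describe the order of the cell types.

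Of 16 other subunits of the family, 5 were tested. Of these, 2 were lower and 1 higher in PSCs than in S100β-GFP+ libraries, 2 lower and 1 higher than in NG2-dsRed+ cells, and 1 was lower in S100β-GFP+ than in NG2-dsRed+ cells. All genes tested gave 24.1% lower and 22.9% higher, 23.1% and 20.9%, and 15.2% and 18.1% in these comparisons. Cacna2d1, the α2δ subunit found most widely, was at 29.6 ± 11.2 CPM in PSCs, 33.8 ± 9.0 in S100β-GFP+ libraries and 50.5 ± 9.7 in NG2-dsRed+ libraries, 1.71-fold lower in PSCs than in NG2-dsRed+ cells (edgeR adjusted p = 0.00304). Its difference between PSCs and S100β-GFP+ cells did not pass (-0.19 ± 0.22, edgeR adjusted p = 0.4999). Between S100β-GFP+ and NG2-dsRed+ cells it was 1.497-fold lower (edgeR adjusted p = 0.0359), a call lost on leaving out S100β-GFP+ library 1, 3, 11, 17 or 27, PSC library 4, 12, 20 or 34, or NG2-dsRed+ library 7, 9, 15, 28 or 35 (edgeR adjusted p between 0.0514 and 0.0904), and in 3 of 10 other ways of processing (adjusted p between 0.0534 and 0.0669). Among the other β subunits, Cacnb3, common in neurons and smooth muscle, was 9.18-fold lower in PSCs than in S100β-GFP+ libraries and 11.8-fold lower than in NG2-dsRed+ cells (edgeR adjusted p = 2.00e-09 and 2.36e-10), with all PSC libraries, at 0.18 to 3.60 CPM, below all others. Cacnb4 was 3.73-fold lower in PSCs than in S100β-GFP+ cells (edgeR adjusted p = 0.00169), and its differences of -0.87 from NG2-dsRed+ cells (edgeR adjusted p = 0.1248) and of 1.03 between S100β-GFP+ and NG2-dsRed+ cells (edgeR adjusted p = 0.0853) did not pass. These passed without PSC library 20 (edgeR adjusted p = 0.0409) and without PSC library 18 or 31 (edgeR adjusted p = 0.0306 and 0.0432), in that order. The first also passed in 1 of 10 other ways of processing, by limma-voom (adjusted p = 0.0371). The second passed in 3 of 10, by DESeq2, by limma-voom and by edgeR with only the groups compared (adjusted p between 0.00341 and 0.0259). Cacnb1, the β subunit of skeletal muscle, had 4.51 ± 3.76, 3.06 ± 1.28 and 4.79 ± 1.72 CPM and passed in no comparison (edgeR adjusted p = 0.244, 0.850 and 0.196, unadjusted p under 0.05 in none). In other ways of processing it passed between PSCs and NG2-dsRed+ cells by limma-voom (adjusted p = 0.0139). It also passed between PSCs and S100β-GFP+ cells in total counts without TMM (edgeR adjusted p = 0.0201). PSC library 18 had 13.7 CPM of Cacnb1 against 1.26 to 6.98 in the other 8.

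Cacng5 was the single tested subunit gene that was higher in PSCs in either comparison. It encodes a γ subunit of the kind that accompanies AMPA-type glutamate receptors. PSC libraries lay between 6.22 and 22.6 CPM (median 15.3), S100β-GFP+ libraries between 0 and 1.48 and NG2-dsRed+ libraries between 0 and 3.03, so all 9 PSC libraries were above all others. Cacng5 was 25.9-fold higher in PSCs than in S100β-GFP+ libraries (log2 fold change 4.69 ± 0.70, edgeR adjusted p = 2.13e-06) and 13.8-fold higher than in NG2-dsRed+ cells (3.79 ± 0.59, edgeR adjusted p = 4.98e-06). Without S100β-GFP+ libraries 14, 17 and 22 the first of these was 6.03 (edgeR adjusted p = 3.37e-06). The remaining 11 were not tested, among them Cacna1s, the L-type pore of skeletal muscle, with means of 0.245, 1.37 and 0.428 CPM, and Cacng8 with 0 counts in all libraries, which allows up to 0.0155 CPM over all of them.

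**Figure D5:**
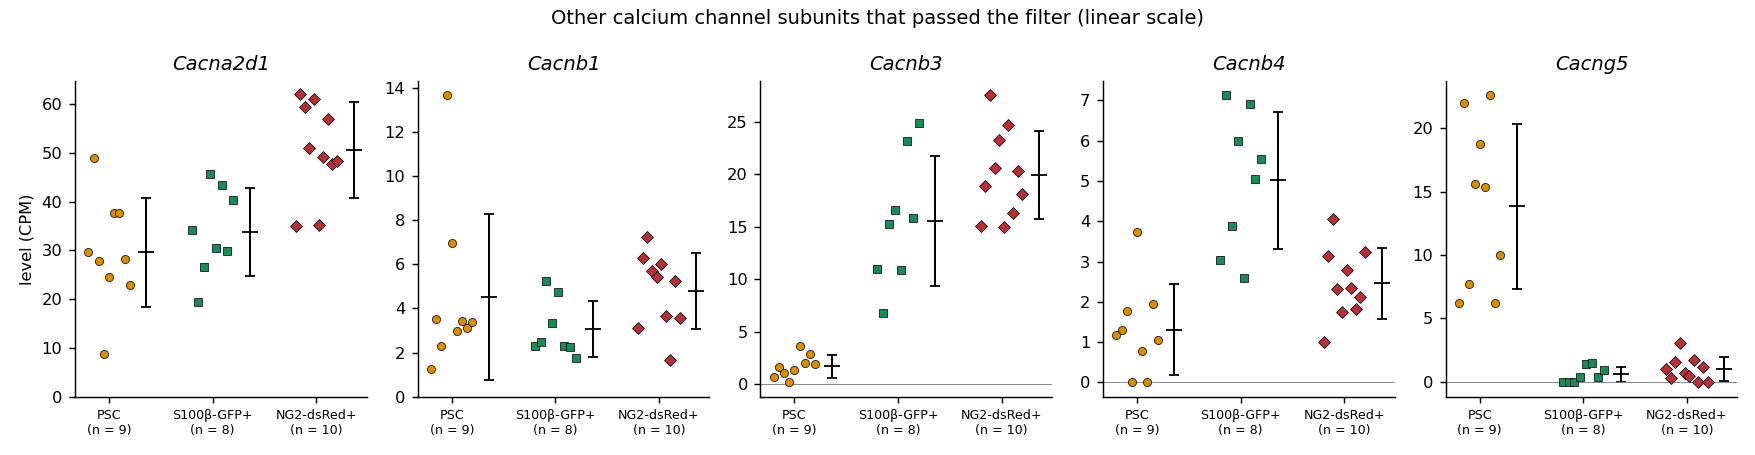
Level in every library (CPM, linear axes) of the 5 other calcium channel subunits that were tested, with mean ± SD beside the points. Cacng5 is above 6 CPM in all 9 PSC libraries and at most 3.03 CPM elsewhere, and Cacnb3 is lower in every PSC library than in any other.

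Proteins that act on these channels were examined as a list of 15, of which 11 were tested. Of them 3 were higher and 5 lower in PSCs than in S100β-GFP+ cells, 1 was higher and 6 lower than in NG2-dsRed+ cells, and 1 was higher and 5 lower in S100β-GFP+ than in NG2-dsRed+ cells, with list medians of -0.48, -0.87 and -0.84 in log2. Over all genes tested 22.9% were higher and 24.1% lower, 20.9% and 23.1%, and 18.1% and 15.2%, with medians of 0.04, 0.02 and -0.02. Stac, an adaptor that holds L-type channels at the membrane, went the way of Cacna1c, at 0.261 ± 0.292 CPM in PSCs, 1.18 ± 0.74 in S100β-GFP+ libraries and 14.4 ± 4.4 in NG2-dsRed+ libraries (log2 fold changes -2.05, -5.64 and -3.60, edgeR adjusted p = 0.00265, 5.86e-10 and 8.71e-07). By limma-voom the first of these did not pass (-1.54, adjusted p = 0.0848). Jph2, a junctophilin that joins the cell membrane to calcium stores in heart and smooth muscle, was lower in PSCs than in NG2-dsRed+ cells (-4.18, edgeR adjusted p = 1.09e-09), as was Cabp1, a calcium sensor, in S100β-GFP+ cells (-2.99, edgeR adjusted p = 1.36e-05, and -4.504 without libraries 14, 17 and 22). Among small GTPases that inhibit these channels, Gem was lower in PSCs than in S100β-GFP+ libraries (-1.90, edgeR adjusted p = 3.54e-10), with no overlap. In S100β-GFP+ against NG2-dsRed+ cells Gem was higher (0.50, edgeR adjusted p = 0.0217) and Rrad lower (-1.32, edgeR adjusted p = 0.0113). Rem1, of the same GTPase family, exceeded the S100β-GFP+ level in PSCs (1.66 ± 0.28, edgeR adjusted p = 1.53e-05), with 64.7 CPM in PSC library 18 and 11.2 to 22.1 in the other 8. Its difference from NG2-dsRed+ cells did not pass with that library (-0.40, edgeR adjusted p = 0.211) and did without it (-0.71, edgeR adjusted p = 0.000838). In PSCs Jph1 was higher than in S100β-GFP+ libraries (1.26, edgeR adjusted p = 0.0322), and Jph4 was higher than in NG2-dsRed+ cells (1.98, edgeR adjusted p = 0.00551). The Jph1 call was lost without S100β-GFP+ library 1, 11 or 33 or PSC library 20 or 36 (edgeR adjusted p between 0.0507 and 0.0646), and in 2 of 10 other ways of processing, with only the groups compared and with a term for how much of a library 3 very abundant genes (Lars2, Gm23935, Gm15564) took up (edgeR adjusted p = 0.0588 and 0.191). The Gem call between the other cell types was lost without S100β-GFP+ library 14 (edgeR adjusted p = 0.0631) and in 3 of 10 other ways, of which leaving out libraries 14, 17 and 22 gave 0.34 (edgeR adjusted p = 0.165) and total counts without TMM 0.27 (edgeR adjusted p = 0.189).

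Of 21 genes that release, pump, exchange or let in calcium by other routes, 20 were tested. In PSCs 2 were higher and 12 lower than in S100β-GFP+ cells, 3 were higher and 12 lower than in NG2-dsRed+ cells, and in S100β-GFP+ cells 4 were higher and 7 lower than in NG2-dsRed+ cells, with medians of -0.58, -0.82 and -0.39 in log2. The shares of all genes tested were 22.9% higher and 24.1% lower, 20.9% and 23.1%, and 18.1% and 15.2%, and the medians 0.04, 0.02 and -0.02. Without S100β-GFP+ libraries 14, 17 and 22 the first of these counts fell to 2 higher and 5 lower. In that fit 3621 of all 16216 genes tested were higher and 3257 lower, with a median of 0.16. Slc8a3, a sodium-calcium exchanger, was 23.9-fold higher in PSCs than in S100β-GFP+ libraries and 42.6-fold higher than in NG2-dsRed+ cells (log2 fold changes 4.58 ± 0.52 and 5.41 ± 0.50, edgeR adjusted p = 2.12e-08 and 4.37e-10), with all PSC libraries, at 16.9 to 41.6 CPM, above all others. Atp2a3, a pump that fills calcium stores, was lower in PSCs than in NG2-dsRed+ cells (-4.08 ± 0.34, edgeR adjusted p = 7.06e-11) and lower in S100β-GFP+ than in NG2-dsRed+ cells (-1.99, edgeR adjusted p = 1.54e-05). The release channel Ryr2 was lower in PSCs than in S100β-GFP+ and NG2-dsRed+ libraries (-2.40 and -3.13, edgeR adjusted p = 0.00103 and 4.04e-05), the first at -1.82 without libraries 14, 17 and 22 (edgeR adjusted p = 0.0193), and the inositol trisphosphate receptor Itpr3 was higher than in S100β-GFP+ cells (1.00, edgeR adjusted p = 0.0166), with 2.98 CPM in PSC library 18 and 30.3 to 83.9 in the other 8. The Itpr3 call was lost with only the groups compared (edgeR adjusted p = 0.0524). Ryr1, the release channel of skeletal muscle, was higher in PSCs and in S100β-GFP+ cells than in NG2-dsRed+ cells (2.08 and 2.15, edgeR adjusted p = 0.00510 and 0.00628). Its PSC value rested on library 18, at 174 CPM against 2.72 to 48.7 in the other 8, and without that library it did not pass (1.12, edgeR adjusted p = 0.0533). The same library had 1640 CPM over 8 markers of skeletal muscle fibres against 197 to 984 in the others, and the part of muscle fibre RNA in this difference was not tested. Atp2b2, a pump of the cell membrane, was lower in PSCs than in S100β-GFP+ cells (-2.63, edgeR adjusted p = 0.0118), but not without library 22 (-1.91, edgeR adjusted p = 0.0669) or without libraries 14, 17 and 22 (-0.06, edgeR adjusted p = 0.963), nor by limma-voom or with the term for 3 abundant genes (adjusted p = 0.191 and 0.0764). Orai2, a store-operated channel, was higher in S100β-GFP+ than in NG2-dsRed+ cells (1.24, edgeR adjusted p = 0.00982), and the exchanger Slc8a2 lower (-2.04, edgeR adjusted p = 0.0171).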

How the data were processed

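RNA of PSCs, S100β-GFP+ cells and NG2-dsRed+ cells was measured by RNA-seq after amplification with the SMART-Seq v4 kit. Per the methods, the authors used ea-utils and Btrim for trimming, HISAT2 for alignment and HTSeq for counting, and the deposited counts per gene are whole numbers without normalization. The submitters' processing notes name GRCm38. Their versions, annotation and strand setting are not given in the sources used, so reads of a gene and of one overlapping it on the other strand cannot be told apart. PCR copies are not separate molecules, so low counts carry more error than counting gives. Of 36 labelled libraries, 12 per cell type, 27 have a column, and the other 9 were not analysed here. The design text gives 7 S100β-GFP+ replicates, while the table has 8 columns, and all were used. No 2 libraries of a cell type were identical, and each pair differed by more than sampling noise (chi-square over its degrees of freedom at least 8.10).

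GENCODE M21 (GRCm38) gave symbols, positions and exon lengths for 52489 of 52636 identifiers (99.7%), and RefSeq gave promoters. Differences came from edgeR 4.0.16 in R 4.3.3, normalized by TMM after filterByExpr at a minimum count of 10 had kept 15330 genes, with 1 quasi-likelihood fit of all 27 libraries by cell type and Benjamini-Hochberg adjustment over all genes tested at 0.05. CPM use the library sizes of that fit, and log2 levels a prior count of 2. The fit was tested on simulated counts with known changes. Those counts had the same spread setting for every gene and no library that stood apart, so they do not test the fit in these respects. Counts on Lars2, Gm23935 and Gm15564 together made up between 3.64% and 40.0% of a library.

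The members, the lists of other genes and the tests were chosen with earlier results of these data known. Named genes are the 10 members, the tested other subunits, the 2 largest and 2 smallest differences past the threshold of each further list and comparison, the 3 genes most correlated with the member highest in a cell type, Cspg4, S100b, the 3 genes above and overlapping genes. Cacna1s and Cacng8 were named after their values were seen. The result of 1 gene that this rule names is not reported here. Alternatives were the Wald test of DESeq2 1.42.0, limma-voom (limma 3.58.1) with quality weights, DESeq2 size factors in edgeR, total counts without TMM, leaving out those 3 genes or taking their share as a term, no filter, only the groups compared, a prior count of 2 in fold changes, leaving out S100β-GFP+ libraries 14, 17 and 22 together or each library in turn, and for levels per kilobase the longest protein-coding transcript.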

Additional observations from a re-analysis of the deposited data

Results flagged for a closer look

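A library was marked where its gap to the nearest other library of its cell type, over the whole range of the cell type, was above Dixon's 95% critical value. This was asked of the 10 members and the 5 other tested subunits in each cell type, 45 groups of libraries, and 8 were marked. For normally distributed values chance alone marks about 1 in 20 (5%). The levels here are CPM on a linear scale, some of them 0, and the groups share libraries. The 8 marked groups therefore cannot be read as more than chance would give. In S100β-GFP+ library 22, Cacna1b was at 3.95 CPM (0 to 1.39 in the others), Cacna1c at 23.4 CPM (1.87 to 12.1) and Cacna1e at 8.39 CPM (0.71 to 2.47). In PSC library 18, Cacna1d was at 8.59 CPM (0.31 to 4.10 in the others) and Cacnb1 at 13.7 CPM (1.26 to 6.98). Cacna1e was at 2.95 CPM in PSC library 36 (0 to 0.57 in the others), and Cacna2d3 at 1.24 CPM in PSC library 20 (0 to 0.42). Cacnb2 was at 27.6 CPM in NG2-dsRed+ library 13 (12.1 to 20.3 in the others). Of the marker sums, PSC library 18 had 1640 CPM of muscle fibre markers (197 to 984 in the other PSC libraries), 1494 CPM of pericyte and smooth muscle markers (796 to 1277) and 96.9 CPM of endothelial markers (155 to 467), and S100β-GFP+ library 22 had 1097 CPM of endothelial markers (118 to 1980 in the others) and 191 CPM of macrophage and leukocyte markers (252 to 1306). Their part in these values was not tested.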

How the results depend on the processing

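No paired analysis was possible because the labels do not say which libraries come from the same mouse, and no library number is shared between cell types. The count of members called was 5 in each comparison. Between PSCs and S100β-GFP+ cells it was 9 by DESeq2, 8 with no filter and 3 in total counts without TMM, and between S100β-GFP+ and NG2-dsRed+ cells it was 8 by DESeq2. DESeq2 and the fit with no filter include the 4 members that failed the filter. Without TMM the median over all genes shifted to 0.54, 0.30 and -0.24 in the 3 comparisons, and the share of calls that were higher went from 48.8% to 73.5%, from 47.4% to 65.3% and from 54.3% to 35.4%. With no filter that share was 23.6% and 77.4% in the first and last, and by DESeq2 40.3% and 64.8%. By DESeq2, 5546 of 44705 genes were lower and 3738 higher in the first, with a median of -0.90. In the last 4157 were higher and 2255 lower, with a median of 0.58. The direction of each called difference of a tested member was the same under all alternatives, and Cacna1h between PSCs and S100β-GFP+ cells, not called, turned to 1.86 without S100β-GFP+ libraries 14, 17 and 22. Leaving out each library in turn gave 4 to 5, 4 to 5 and 5 to 6 members called.

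For the other subunits (3, 3 and 1 called), the first count was 6 by DESeq2 and 7 with no filter, the second 5 by limma-voom, and the last 2 by DESeq2, 3 by limma-voom, 0 with DESeq2 size factors or without Lars2, Gm23935 and Gm15564, 4 with no filter, 2 with only the groups compared and 2 without libraries 14, 17 and 22. Leaving out each library gave 0 to 2 for the last. For PSCs against S100β-GFP+ cells, channel partners (8 called) fell to 4 with only the groups compared and with the share of the 3 genes as a term, and calcium handling genes (14 called) to 8 without TMM, 9 with only the groups compared and 7 without libraries 14, 17 and 22. Over all genes 7198 of 15330 were called in the main fit, 6052 of 14369 with only the groups compared and 7124 of 15330 with that term. Without TMM 9202 of 15330 were called, and without libraries 14, 17 and 22 6878 of 16216. On transcript length Cacna1a was at 0.496 CPM per kilobase in PSCs and 2.14 in S100β-GFP+ cells. The cause of these changes was not tested. A member under 1 CPM rests on a few counts in each library, so its level is known only roughly.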
